A study of Homo sapiens with 8 samples.

Results

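The immunoglobulin genes were examined in LP-1 cells, an established human multiple myeloma cell line, after exposure to bromodomain inhibitors. The genes comprised the variable, diversity and constant region genes of the heavy chain, the variable and constant region genes of the kappa and lambda light chains, the lambda-like genes and the joining chain gene, which the deposited table calls IGJ. They were chosen by symbol alone, and 532 of the 63129 rows of the table matched. One match, IGHMBP2, encodes a helicase on chromosome 11 and was set apart, which left 531 rows with 384 different symbols. Of these rows, 423 were listed at 0 in every library, 71 were above 0 in at least 1 library but under 1 RPKM in all (RPKM being read counts scaled to transcript length and to library size), and 37 reached 1 RPKM in at least 1 library. Genes were tested where their values averaged 1 RPKM or more, which 34 did.

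RNA of 8 samples was sequenced, in 4 groups of 2 replicates, all from LP-1 cells and all harvested at 6 hr. SGC-CBP30, an inhibitor of the bromodomains of the coactivators CBP and EP300, was given at 2.5 uM, and CPI203, an inhibitor of the BET bromodomain proteins, at 250 nM. The controls received DMSO, and each compound was compared with the DMSO pair that carries the same naming series of library identifiers, since the labels do not otherwise state which DMSO belongs to which compound. The comparisons ask how far each inhibitor changed the immunoglobulin transcripts of a myeloma cell. The study describes the replicates as biological and the labels add nothing on how they were grown, so the p-values measure the spread between these libraries.

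Plasma cells and the myelomas that arise from them devote much of their transcription to secreted antibody. A B cell joins a variable, a diversity and a joining segment on a heavy chain allele, and a variable and a joining segment on a kappa or a lambda allele, so that a clone makes 1 heavy and 1 light chain, and class switching then exchanges the IGHM constant region for that of an IgG, IgA or IgE. Enhancers inside and downstream of the heavy and light chain loci keep the rearranged genes active, and transcription factors such as IRF4, PRDM1, XBP1 and the octamer factors with their coactivator POU2AF1 act in this program. The joining chain links IgA and IgM units into polymers and is also made by plasma cells that secrete IgG.

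The labelled cell type was checked against defining markers. All 8 plasma cell markers averaged 1 RPKM or more, and their summed level lay between 828 and 1332 RPKM. The mean sum was 1248 RPKM with DMSO and 918 RPKM with SGC-CBP30, where IRF4 and PRDM1 were called lower, and 1325 RPKM with DMSO and 835 RPKM with CPI203, where SDC1, SLAMF7, TNFRSF17 and XBP1 were called lower. With each compound 7 of the 8 markers were lower, with or without a call. The other was SDC1 with SGC-CBP30, averaging 45.5 RPKM with DMSO and 50.2 RPKM with the compound. With CPI203 it was PRDM1, averaging 52.9 RPKM with DMSO and 68.2 RPKM with the compound. The part of these shifts in the results was not tested. Of 6 mature B cell markers CIITA alone averaged 1 RPKM or more and PAX5 was listed at 0 in every library. Their sum lay between 3.44 and 53.7 RPKM and was lower with either compound than with its DMSO, through CIITA, whose part in the results was not tested. None of 6 T cell markers and none of 5 myeloid markers reached it, with sums of at most 1.34 and 0.32 RPKM. Of 4 erythroid markers HBB alone reached it, with sums between 0.77 and 3.55 RPKM. The estimated depth was between 26000000 and 50100000 reads per library. The median difference between replicates of immunoglobulin genes with at least 10 RPKM was 0.03 to 0.11 on the log2 scale. In these bulk libraries fewer cells with a transcript and less of it per cell cannot be told apart.

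The expressed genes were mainly those of a lambda light chain and an IgG1 heavy chain. Kappa genes filled 100 rows, 90 of them at 0 in every library, and the highest kappa value in any library was 0.827 RPKM, of IGKV1D-17. The kappa constant gene IGKC was at or next to 0 in all 8 libraries. IGHM and IGHD, the first heavy chain constant genes a B cell uses, were at 0 throughout, as were all 64 rows of the short diversity segments. IGHE stayed at or under 0.453 RPKM. None of 16 genes that every cell uses was at 0. Together the immunoglobulin rows took between 2.91% and 3.46% of the total RPKM of a library.

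Several members are close copies of each other, so the share of reads that each receives depends on the mapping. The windows below, of 100 coding bases each, show IGLC1 beside IGLC2 and IGLC3, which fell further than it with CPI203, and IGLC7, which differed between the DMSO pairs, written as mRNA-sense DNA from the GENCODE release 29 transcripts on GRCh38. Capitals mark bases that differ from IGLC1, and positions count from the first coding base. They lie within the single exon of each gene on the plus strand of chromosome 22, from base 11 to base 110.
IGLC1: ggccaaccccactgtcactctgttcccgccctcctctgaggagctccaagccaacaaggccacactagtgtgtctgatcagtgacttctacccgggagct
IGLC2: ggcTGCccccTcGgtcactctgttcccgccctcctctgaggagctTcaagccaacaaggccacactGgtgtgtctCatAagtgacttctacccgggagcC
IGLC3: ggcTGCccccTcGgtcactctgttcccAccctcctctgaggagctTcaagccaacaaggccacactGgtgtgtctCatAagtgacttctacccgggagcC
IGLC7: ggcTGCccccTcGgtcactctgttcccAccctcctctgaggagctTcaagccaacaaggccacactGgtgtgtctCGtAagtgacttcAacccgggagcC
These windows are chr22:22895385-22895484 for IGLC1, chr22:22900986-22901085 for IGLC2, chr22:22906352-22906451 for IGLC3 and chr22:22922604-22922703 for IGLC7. IGLC2 differed from IGLC1 at 10 of the 100 bases shown, and IGLC3 at 11. Over their whole coding length of 317 bases, IGLC2 and IGLC3 differed from each other at 3 bases, and IGLC1 differed from IGLC2 at 15 and from IGLC3 at 16. The last exon of IGLL5 holds all 317 bases of IGLC1, and the deposited positions of these genes share 452 bases, so their values cannot be separated.

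The next windows show the most abundant heavy chain variable genes, whose levels differed between the DMSO pairs. They run from coding base 114 to 213 on the minus strand of chromosome 14, and capitals mark bases that differ from IGHV3-30.
IGHV3-30: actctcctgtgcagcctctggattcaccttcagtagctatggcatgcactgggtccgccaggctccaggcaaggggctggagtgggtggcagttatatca
IGHV3-33: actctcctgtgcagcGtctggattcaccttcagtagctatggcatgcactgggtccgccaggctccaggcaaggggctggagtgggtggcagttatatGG
These windows are chr14:106335220-106335319 and chr14:106359931-106360030. They differed at 3 of the 100 bases, and the genes at 5 of 351 coding bases. The longest run of identical bases between them was 128 bases.

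Levels were read first, as RPKM, which is scaled to transcript length. The lambda variable gene IGLV3-21 was the most abundant gene of the whole table in all 8 libraries. It had 6448 and 6613 RPKM with DMSO against 6120 and 6539 RPKM with SGC-CBP30. In the CPI203 experiment it had 6580 and 6515 RPKM with DMSO and 5930 and 6088 RPKM with CPI203. By itself it took between 38.2% and 44.6% of the immunoglobulin RPKM. The groups overlapped with SGC-CBP30 and stood apart with CPI203.

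The lambda constant gene IGLC1 ranked second in every library. It had 2129 and 2302 RPKM with DMSO against 1986 and 1776 RPKM with SGC-CBP30, and 2120 and 2155 RPKM with DMSO against 1773 and 1887 RPKM with CPI203. IGLL5, the lambda-like gene that shares its constant exon, had 1519 and 1580 RPKM with DMSO against 1391 and 1414 RPKM with SGC-CBP30, and 1077 and 1040 RPKM with DMSO against 860 and 846 RPKM with CPI203. In each of these comparisons both treated libraries lay below both DMSO libraries.

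IGLC2 and IGLC3, the neighbouring lambda constant genes, behaved differently from IGLC1. IGLC2 had 155 and 175 RPKM with DMSO against 174 and 169 RPKM with SGC-CBP30, which overlap, and 171 and 162 RPKM with DMSO against 55.6 and 56.9 RPKM with CPI203. IGLC3 had 229 and 250 RPKM with DMSO against 262 and 237 RPKM with SGC-CBP30, and 113 and 109 RPKM with DMSO against 40.7 and 43.1 RPKM with CPI203. With CPI203 their mean levels were 0.339 and 0.378 times those of the DMSO libraries, with a wide gap between the groups.

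Among the heavy chain constant genes IGHG1, which encodes the IgG1 constant region, held between 77.7% and 79.6% of the summed IgG RPKM. It had 1899 and 1938 RPKM with DMSO against 1536 and 1458 RPKM with SGC-CBP30, and 1475 and 1441 RPKM with DMSO against 1166 and 1215 RPKM with CPI203. The pseudogene IGHGP had 182 RPKM in each DMSO library against 146 and 143 RPKM with SGC-CBP30, and 144 and 134 RPKM with DMSO against 101 and 107 RPKM with CPI203. IGHG3 had 129 and 132 RPKM with DMSO against 112 and 105 RPKM with SGC-CBP30, and 109 and 100.2 RPKM with DMSO against 77.4 and 87.0 RPKM with CPI203. IGHG2 and IGHG4 followed with means over the libraries of 87.2 and 73.3 RPKM. The IgG genes are near copies, IGHG1 having 96.7% identical coding bases with IGHG3 and 95.4% with IGHGP, so the smaller values can hold reads of IGHG1. All 5 were lower in both treated libraries than in both DMSO libraries, with either compound.

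The IgA constant genes were present at lower levels and are far from IGHG1 in sequence, with 61.4% identical aligned bases and no identical run over 11 bases. IGHA1 had 126 and 131 RPKM with DMSO against 90.3 and 86.7 RPKM with SGC-CBP30. In the CPI203 experiment IGHA1 had 97.4 and 90.9 RPKM with DMSO against 37.4 and 38.8 RPKM with CPI203. IGHA2 had 29.5 and 29.1 RPKM with DMSO against 21.3 and 19.5 RPKM with SGC-CBP30, and 22.4 and 21.0 RPKM with DMSO against 7.54 and 8.47 RPKM with CPI203. Both IgA genes were lower with either compound. They share 96.8% of their aligned coding bases with each other, so the smaller values of IGHA2 can hold reads of IGHA1.

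The variable region of the heavy chain was represented mainly by IGHV3-30 and IGHV3-33. IGHV3-30 had 824 and 813 RPKM with DMSO against 708 and 697 RPKM with SGC-CBP30, and 1710 and 1754 RPKM with DMSO against 1383 and 1413 RPKM with CPI203. IGHV3-33 had 141 and 139 RPKM with DMSO against 113 and 108 RPKM with SGC-CBP30, and 1093 and 1129 RPKM with DMSO against 905 and 899 RPKM with CPI203. Within each experiment the treated libraries lay below the DMSO libraries, and the step between the experiments was larger than that with either compound.

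IGJ, on chromosome 4, had 1426 and 1414 RPKM with DMSO against 1270 and 1272 RPKM with SGC-CBP30, and 1780 and 1920 RPKM with DMSO against 1480 and 1451 RPKM with CPI203. Its level was thus of the same order as that of IGHG1, and it was lower in both treated libraries of each experiment.

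**Figure D1:**
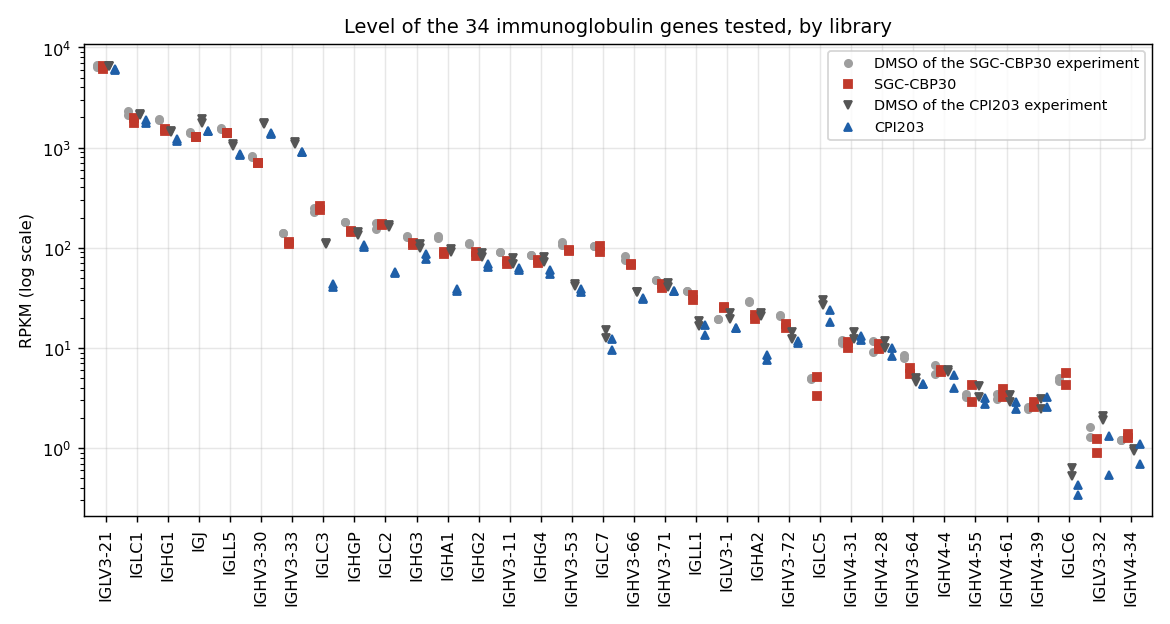
RPKM, on a log scale, of the 34 immunoglobulin genes tested, ordered by their mean, with 1 point per library and a colour and shape per group. IGLV3-21 stood highest in every library, at 5930 RPKM or more, and IGHV3-33, IGLC3, IGLC5, IGLC6 and IGLC7 had DMSO levels that differed between the experiments.

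The remaining genes stayed below these levels. In the IGHV3 family IGHV3-11, IGHV3-53, IGHV3-66, IGHV3-71, IGHV3-72 and IGHV3-64 had means over the 8 libraries of 74.3, 71.1, 53.8, 42.2, 15.6 and 5.81 RPKM. In the IGHV4 family IGHV4-31, IGHV4-28, IGHV4-4, IGHV4-55, IGHV4-61, IGHV4-39 and IGHV4-34 had means between 1.10 and 12.1 RPKM. Among the light chain genes IGLC7, IGLL1, IGLV3-1, IGLC5, IGLC6 and IGLV3-32 had means between 1.36 and 56.4 RPKM. IGLL1 encodes a component of the surrogate light chain of pre-B cells. IGLV3-9, IGLV5-52 and the orphon IGHV4OR15-8, a copy outside the heavy chain locus, passed 1 RPKM in a single library or more but were not tested, and their values lay between 0.0169 and 2.00 RPKM. At 1 RPKM a gene of 400 bases received between 10 and 20 reads, so these lowest genes rest on few reads.

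With SGC-CBP30 the IgG, IgA and IGHV3 genes, IGLC1, IGLL5 and IGJ were slightly lower, the most abundant gene IGLV3-21 did not pass the test, and no tested member passed both criteria for a call, which were an adjusted p under 0.05 together with a 1.5-fold change. On the log2(RPKM + 0.1) scale, IGHG1 fell by 0.36, IGHV3-33 fell by 0.34, IGHV3-30 fell by 0.22 and IGLC1 fell by 0.24, with 95% intervals of -0.43 to -0.29, -0.41 to -0.27, -0.28 to -0.17 and -0.36 to -0.12. The IgA genes changed most among those that passed the test, IGHA1 by -0.54 and IGHA2 by -0.52, with intervals of -0.64 to -0.44 and -0.68 to -0.36, just short of the 1.5-fold limit of 0.58. By limma, with p adjusted after Benjamini-Hochberg over 14732 genes, 0 of 34 were called lower and 0 higher, while 3.79% of all genes tested were called lower and 3.47% higher. At an unadjusted p under 0.05 there were 19 members.

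Without the fold criterion 18 of the 34 fell and 1 rose, beside 14.8% of all genes tested that fell and 25.6% that rose. Those that fell were all 5 IgG genes, both IgA genes, all 8 tested IGHV3 genes, IGLC1, IGLL5 and IGJ. IGLC1 did not pass without DMSO replicate 2 or SGC-CBP30 replicate 2, with limma adjusted p of 0.058 and 0.0547. Without SGC-CBP30 replicate 2 IGHG3, IGHG4, IGHV3-71 and IGHV3-72 also missed the threshold, without DMSO replicate 2 IGHG4, IGHV3-66 and IGHV3-71 did, and without DMSO replicate 1 IGHG4 and IGHV3-71 did, with limma adjusted p between 0.0578 and 0.149. With no filter on low values IGLC1, IGLL5, IGJ, IGHG3, IGHG4, IGHV3-11, IGHV3-71 and IGHV3-72 missed it (limma adjusted p from 0.05 to 0.137), and with no intensity trend IGLC1, IGLL5, IGJ, IGHG4 and IGHV3-71 did (from 0.0504 to 0.0748). Each of the 19 lost its significance or its direction under at least 1 of the alternatives tried, and for IGHA1, IGHA2, IGHG2, IGHGP, IGHV3-30, IGHV3-33, IGHV3-53 and IGHV3-64 the sole one was taking all 4 DMSO libraries as controls. The median log2 change of the 34 was -0.21, against 0.07 over all genes tested. Of the 7 tested IGHV4 genes none passed, with changes between -0.12 and 0.12. IGLC2 changed by 0.06 (interval -0.06 to 0.18), IGLC3 by 0.06 (-0.07 to 0.18) and IGLV3-21 by -0.05 (-0.12 to 0.02), with limma adjusted p of 0.406, 0.457 and 0.272.

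The member that rose was IGLV3-1, a lambda variable gene close to the constant genes. It had 19.3 and 19.6 RPKM with DMSO against 25.8 and 24.8 RPKM with SGC-CBP30, and 22.3 and 19.4 RPKM with DMSO against 15.8 and 16.0 RPKM with CPI203. Its log2 change with SGC-CBP30 was 0.38 (interval 0.23 to 0.53, limma adjusted p = 0.00211). Relative to IGLV3-21 its level was 0.299% and 0.296% with DMSO and 0.422% and 0.379% with SGC-CBP30. The coding bases of IGLV3-1 and IGLV3-21 are 82.1% identical.

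With CPI203 most antibody transcripts were also slightly lower, and the IgA genes, IGLC2 and IGLC3 fell much further. IGLC2 fell by 1.56, IGHA2 fell by 1.43, IGLC3 fell by 1.403 and IGHA1 fell by 1.30 on the log2 scale, with 95% intervals of -1.68 to -1.44, -1.59 to -1.27, -1.53 to -1.27 and -1.41 to -1.20. Their limma adjusted p values were 1.99e-08, 1.66e-07, 5.14e-08 and 2.09e-08. The fifth member called was IGLV3-32, with a change of -1.13 (interval -1.89 to -0.38, limma adjusted p = 0.0137). By the same test 5 of 34 members (14.7%) were called lower and 0 higher, beside 14.4% of all genes tested that were called lower and 13.4% higher, so the share called lower was close to that of all genes. At an unadjusted p under 0.05 there were 25 members.

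IGLV3-32 had 1.30 and 1.64 RPKM with DMSO against 1.23 and 0.894 RPKM with SGC-CBP30, and 2.08 and 1.89 RPKM with DMSO against 0.536 and 1.31 RPKM with CPI203. It rests on an estimated 5 to 24 reads per library. Without CPI203 replicate 1 its change was -0.56 (limma adjusted p = 0.088), and without DMSO replicate 1 of that experiment it was -1.07 (limma adjusted p = 0.0635), so its call depends on single libraries.

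Without the fold criterion 24 of the 34 fell with CPI203 and none rose by limma's adjusted p, beside 33.1% of all genes tested that fell and 31.1% that rose. Apart from the 5 already named, those that fell changed by between -0.50 and -0.12. The lower end was that of IGLC6, which stayed under 1 RPKM in every library of this experiment. IGHG1 fell by 0.29, IGJ fell by 0.34, IGLL5 fell by 0.31, IGHV3-30 fell by 0.31, IGHV3-33 fell by 0.30, IGLC1 fell by 0.22 and IGLV3-21 fell by 0.12. The other IgG genes changed by between -0.42 and -0.35, and 7 of 8 tested IGHV3 genes fell. The threshold was missed by IGHV3-53, IGLC7 and IGHV3-72 without CPI203 replicate 1, by IGHV3-72 and IGLC6 without CPI203 replicate 2 or DMSO replicate 2, and by IGLC7 and IGHV3-71 without DMSO replicate 1, with limma adjusted p from 0.0551 to 0.341, and leaving out libraries of the other experiment, which pool their spread in the fit, gave 0.0507 to 0.0645 for IGHV3-72 and IGLC6. With no filter on low values IGLV3-21, IGLC1, IGHV3-11, IGLC7, IGHV3-72, IGLC6 and IGLV3-32 missed the threshold (limma adjusted p from 0.0544 to 0.165). With no intensity trend IGLV3-21, IGLC7 and IGHV3-72 did (from 0.075 to 0.0864). IGLC6 and IGHV3-72 also missed it with a separate fit for each experiment (0.212 and 0.0796). Of the 24, 13 lost significance or direction under at least 1 of the alternatives tried. The median change of the 34 was -0.31, against -0.01 over all genes tested. None of the 7 IGHV4 genes passed, with changes between -0.33 and 0.05.

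Both treated libraries lay below both DMSO libraries for 21 of the 34 members (61.8%) with SGC-CBP30, beside 27.2% of all genes tested, and for 29 of the 34 (85.3%) with CPI203, beside 41.7%. The members share reads and transcription units, so they are not independent of each other.

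**Figure D2:**
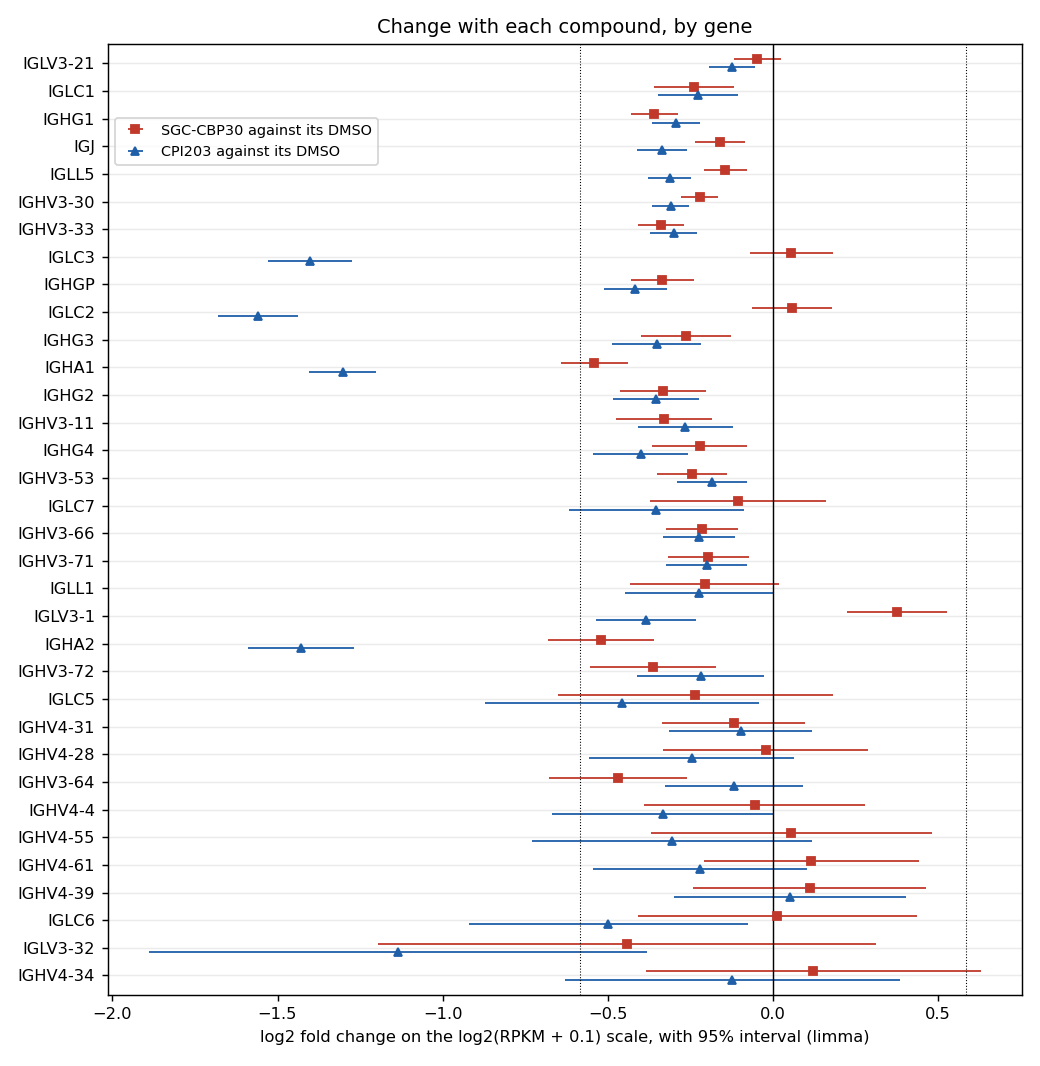
Log2 fold change of each of the 34 genes with SGC-CBP30 (squares) and with CPI203 (triangles), each against its own DMSO pair, with 95% intervals from limma. Dotted lines mark a 1.5-fold change, and IGLC2, IGLC3, IGHA1, IGHA2 and IGLV3-32 lie beyond it with CPI203, the last with an interval that crosses it.

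The summed immunoglobulin RPKM moved little. It was 15997 and 16484 with DMSO against 14622 and 14670 with SGC-CBP30, a log2 ratio of -0.15 that was -0.23 with libraries scaled to the same median and -0.22 without IGLV3-21. It was 17000 and 17071 with DMSO against 14212 and 14568 with CPI203, a log2 ratio of -0.24 that was -0.25 and -0.32 under the same changes. An exact two-sided permutation test gave p = 0.333 for each, the smallest p that 2 libraries against 2 allow. Genes of a family were also added together before the fit, a choice made after the values were seen. Not all members of a family are near copies, IGLV3-21 and IGLV3-1 having 82.1% identical coding bases. The IgG sum changed by -0.34 with SGC-CBP30 and -0.31 with CPI203, the IgA sum by -0.54 and -1.33 and the IGHV3 sum by -0.24 and -0.30. The sum of the IGLC genes with IGLL5 changed by -0.17 and -0.32, the IGLV3 sum by -0.04 and -0.12 and the IGHV4 sum by -0.02 and -0.19. By limma these passed except the IGLV3 sum with SGC-CBP30 (adjusted p = 0.282) and the IGHV4 sum with both (adjusted p = 0.875 and 0.0949). The sum of IGLC2 and IGLC3 lay between 271 and 436 RPKM in the libraries without CPI203, and was 96.4 and 100.1 RPKM with CPI203.

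The change of the smaller constant genes was also read against the dominant one of the same chain in the same library. IGHA1 was 6.64% and 6.78% of IGHG1 with DMSO and 5.88% and 5.95% with SGC-CBP30, and 6.60% and 6.31% with DMSO and 3.20% in both libraries with CPI203. IGLC2 was 7.28% and 7.60% of IGLC1 with DMSO and 8.78% and 9.52% with SGC-CBP30, and 8.04% and 7.52% with DMSO and 3.14% and 3.02% with CPI203. IGHG3 stayed between 6.64% and 7.42% of IGHG1 and IGHG2 between 5.56% and 6.04% in all libraries. Both are near copies of IGHG1 and can hold its reads, so their steadiness is not an independent contrast. All the ratios given here are free of the scaling of the libraries.

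**Figure D3:**
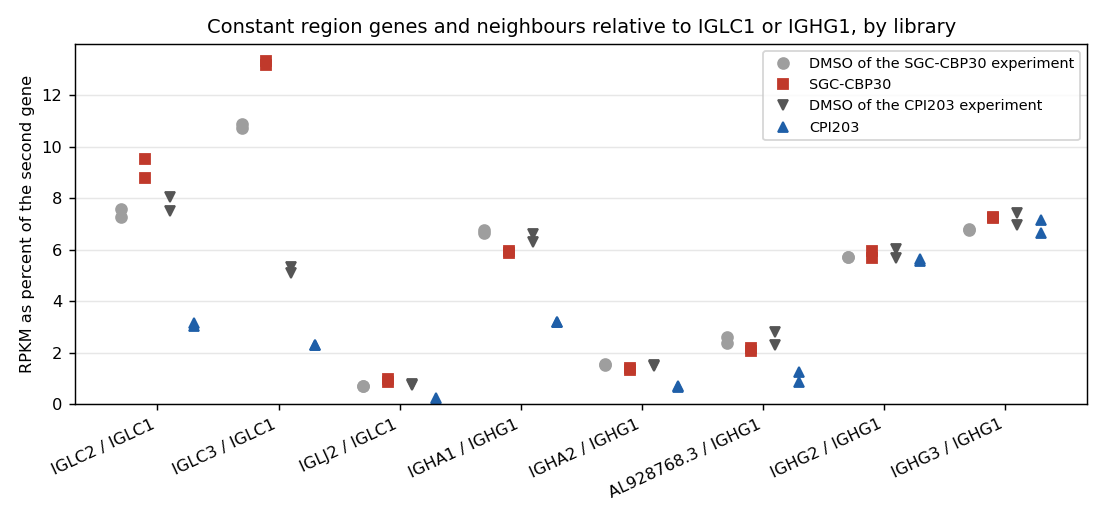
RPKM of constant region genes and of neighbouring rows as a percent of IGLC1 or IGHG1 in the same library, with 1 point per library. IGLC2, IGLC3, IGLJ2, IGHA1, IGHA2 and AL928768.3 were lower with CPI203 than with its DMSO, while IGHG3 lay between 6.64% and 7.42% and IGHG2 between 5.56% and 6.04% of IGHG1 over all libraries.

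The effects of the compounds were compared directly, as the change with SGC-CBP30 minus that with CPI203. The doses and the experiments differ with the compound, so compound, dose and experiment cannot be told apart here. By limma's adjusted p the difference was above 0 for 7 of 34 members and below 0 for 1, beside 29.3% and 21% of all genes tested. It was 1.62 for IGLC2 (interval 1.45 to 1.79), 1.46 for IGLC3 (1.28 to 1.64), 0.91 for IGHA2 (0.68 to 1.14), 0.76 for IGHA1 (0.62 to 0.91) and 0.76 for IGLV3-1 (0.55 to 0.98). For the abundant IGJ and IGLL5 it was 0.17 each, with intervals of 0.07 to 0.28 and 0.08 to 0.26. Neither passed with libraries scaled to the same median, where the difference was 0.11 and 0.10 (limma adjusted p = 0.0657 and 0.0812), with no filter on low values (0.112 and 0.0677) or with no intensity trend in limma (0.094 and 0.0785).

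The member with a difference below 0 was IGHV3-64, with 8.44 and 7.94 RPKM with DMSO against 5.55 and 6.25 RPKM with SGC-CBP30, and 4.96 and 4.57 RPKM with DMSO against 4.36 and 4.39 RPKM with CPI203. The difference of -0.35 (interval -0.65 to -0.06, limma adjusted p = 0.0495) did not pass when any library was left out other than SGC-CBP30 replicate 2 or replicate 1 of the DMSO of the CPI203 experiment, with limma adjusted p from 0.0664 to 0.179. Among the other abundant genes no difference passed. It was 0.09 for IGHV3-30 (interval 0.01 to 0.17, limma adjusted p = 0.0658), -0.07 for IGHG1 (interval -0.17 to 0.04), -0.01 for IGLC1 (-0.18 to 0.16), 0.08 for IGLV3-21 (-0.02 to 0.18) and -0.04 for IGHV3-33 (-0.14 to 0.06). An unlike effect of up to these bounds is not excluded by the data.

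The positions of the genes that fell most with CPI203 were compared. In the heavy chain locus IGHA1 and IGHA2 lie 118723 bases apart in the deposited hg19 positions. The IgG genes between them fell by less. As the IgA genes share 96.8% of their aligned coding bases, IGHA2 can hold reads of IGHA1, and the IgG rows reads of IGHG1. Whether the genes that fell most form 1 stretch of this locus therefore cannot be read from the positions. In the lambda locus IGLC2 begins 5140 bases after IGLC1 and IGLC3 lies 4893 bases beyond IGLC2. The 3 loci hold other annotated rows, 41 in the heavy chain locus, 7 in the kappa locus and 51 in the lambda locus, of which 2, 0 and 7 were tested.

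IGLJ2, the joining segment that ends 1319 bases before IGLC2, had 15.1 and 16.3 RPKM with DMSO against 17.0 RPKM in both libraries with SGC-CBP30, and 15.8 and 17.0 RPKM with DMSO against 3.95 and 3.26 RPKM with CPI203. It fell by 2.16 with CPI203 (interval -2.36 to -1.96, limma adjusted p = 6.02e-08), and its change with SGC-CBP30 was 0.11 (limma adjusted p = 0.346). AL928768.3, a transcript annotated 2516 bases from IGHA1, had 44.7 and 50.4 RPKM with DMSO against 33.4 and 29.8 RPKM with SGC-CBP30, and 41.0 and 33.0 RPKM with DMSO against 14.4 and 10.4 RPKM with CPI203. It was called lower with both, by -0.59 and -1.58 (limma adjusted p = 0.0111 and 8.62e-06).

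PRAME, a gene of another function inside the lambda locus, was called lower with both compounds, by -1.09 and -0.63. GGTLC2 was called lower with CPI203, by -0.64 (interval -1.155 to -0.118, limma adjusted p = 0.0345). It had 1.70 and 1.15 RPKM with DMSO against 0.89 and 0.84 RPKM with CPI203, close to the minimum for testing. ELK2AP, a pseudogene row between IGHG2 and IGHA1, was under the minimum for testing and had 1.12 and 0.878 RPKM with DMSO and 0.241 and 0.300 RPKM with CPI203. AB019441.29, at 66.8 to 94.1 RPKM in the heavy chain variable region, changed by -0.12 with SGC-CBP30 and -0.05 with CPI203, and neither passed.

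**Figure D4:**
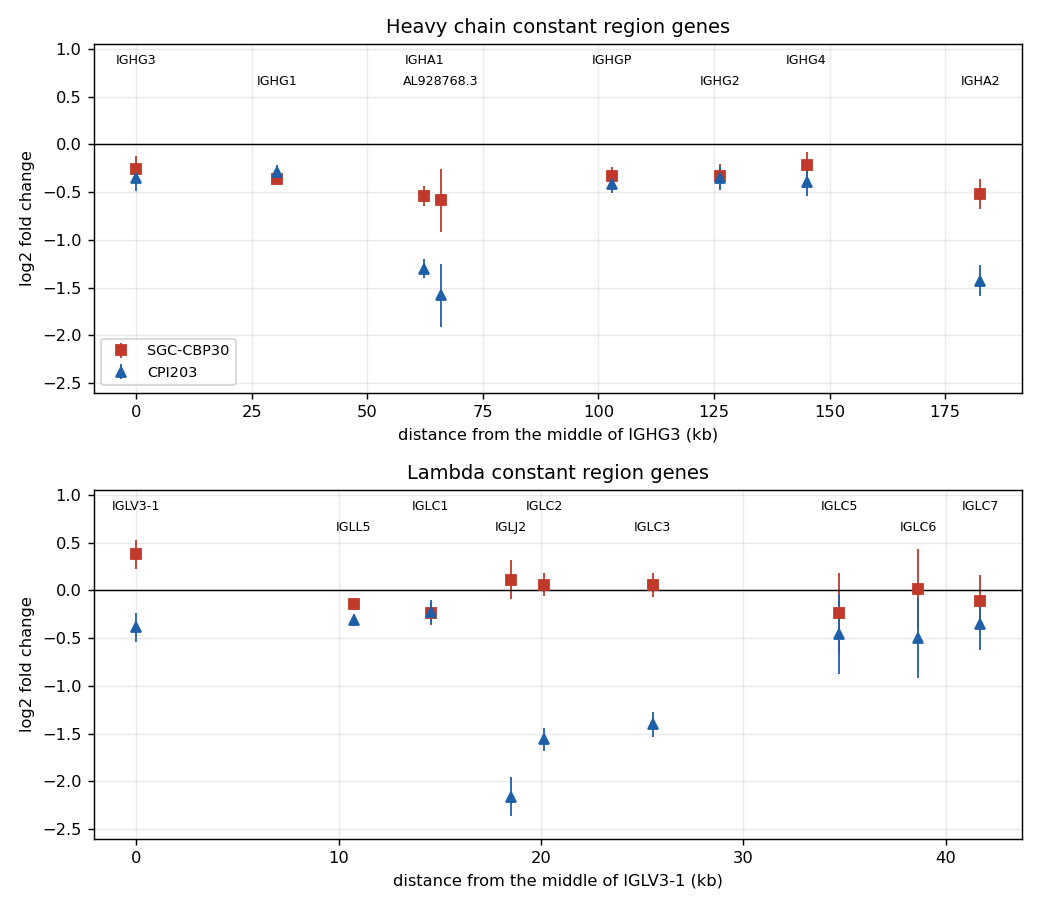
Log2 fold change, with 95% interval, of constant region genes and tested neighbours against their distance from IGHG3 (top) or from IGLV3-1 (bottom), in kilobases along the direction of transcription. With CPI203 (triangles) the lowest values were those of IGHA1, AL928768.3 and IGHA2 at the top and of IGLJ2, IGLC2 and IGLC3 at the bottom.

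The DMSO pairs, which received no compound, differed from each other at several members by more than either compound changed them. IGHV3-33 was higher by 2.99 on the log2 scale in the DMSO pair of CPI203 than in that of SGC-CBP30, and IGHV3-30 by 1.08. As a result IGHV3-33 made up 13.4% to 14.6% of the sum of these near-identical genes in the libraries of the SGC-CBP30 experiment and 38.9% to 39.6% in those of the CPI203 experiment. By limma 3 of 34 were called higher and 8 lower, beside 3.93% and 3.91% of all genes tested. Naming series, and whatever else distinguished the experiments, cannot be told apart, and the difference is not an effect of a compound.

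The third gene called higher was IGLC5, with 4.87 and 4.95 RPKM with DMSO, 5.18 and 3.34 RPKM with SGC-CBP30, 30.4 and 27.1 RPKM with DMSO in the other experiment and 18.1 and 24.1 RPKM with CPI203, a log2 difference of 2.52 between the DMSO pairs. IGLC7 went the other way, with 104 RPKM in both DMSO libraries and 103.7 and 90.2 RPKM with SGC-CBP30 but 15.1 and 12.6 RPKM with DMSO and 9.50 and 12.3 RPKM with CPI203, a difference of -2.91. IGLC6 had 4.72 and 4.98 RPKM with DMSO, 5.62 and 4.26 RPKM with SGC-CBP30, 0.531 and 0.633 RPKM with DMSO in the other experiment and 0.424 and 0.343 RPKM with CPI203, a difference of -2.86. It reached the minimum for testing only through the libraries of the SGC-CBP30 experiment, where it was high. Its place among the 8 called lower rests on that filter. These lambda constant genes lie next to IGLC3, which itself differed by -1.11, whereas IGLC1 and IGLC2 differed by -0.05 and 0.01 without passing.

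Of the heavy chain variable genes IGHV3-53 had 107 and 115 RPKM with DMSO, 94.0 and 93.2 RPKM with SGC-CBP30, 41.5 and 43.4 RPKM with DMSO in the other experiment and 36.3 and 38.5 RPKM with CPI203. IGHV3-66 had 75.4 and 83.2, 67.7 and 68.9, 36.4 and 36.5, and 31.1 and 31.4 RPKM in the same order. Both were lower in the second DMSO pair, by -1.38 and -1.12, and they share 98.3% of their aligned coding bases. IGHV3-72 had 21.5 and 21.0, 17.3 and 15.7, 12.2 and 14.5, and 11.1 and 11.7 RPKM in that order, a difference of -0.67, and IGHV3-64 differed by -0.77. IGLL1 had 36.6 and 36.7, 33.7 and 29.95, 18.6 and 16.7, and 13.5 and 16.8 RPKM in that order, a difference of -1.05. The comparison of a compound with its own DMSO pair does not contain these steps.

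The constant gene IGHG1 differed by -0.40 between the DMSO pairs and IGJ by 0.38, and IGLV3-21 did not pass with a difference of 0.00. When the IGHV3 genes were summed the sum was higher by 1.21 in the second pair.

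**Figure D5:**
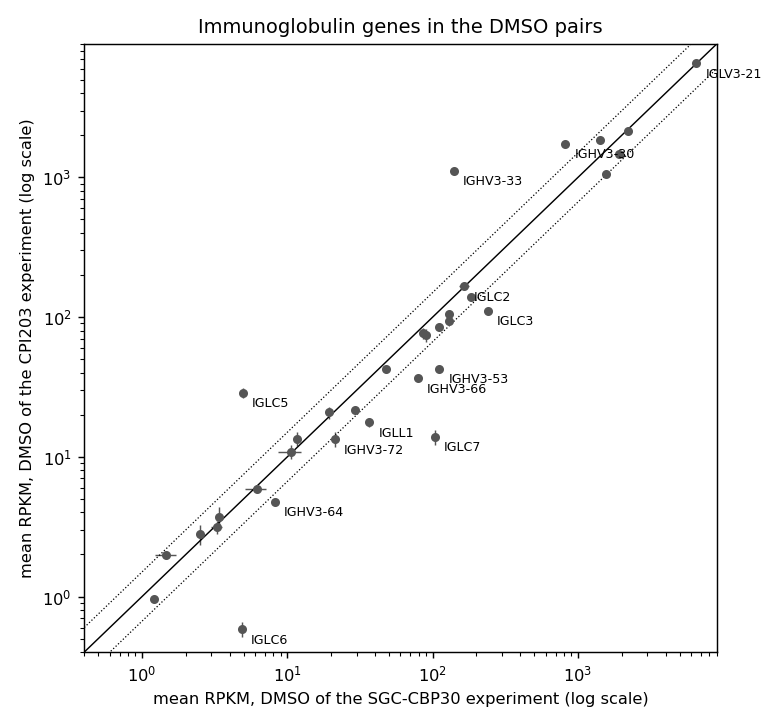
Mean RPKM of the 34 genes in the DMSO pair of the CPI203 experiment against that in the DMSO pair of the SGC-CBP30 experiment, both on log scales, with SD bars (n = 2), the line of equality and dotted lines at 1.5-fold. IGHV3-33, IGHV3-30 and IGLC5 lie above the upper dotted line, and IGLC7 and IGLC6 lie farthest below.

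The genes known to drive and serve antibody production were read from lists chosen by function. Their counts stand beside 3.47% of all genes tested called higher and 3.79% lower with SGC-CBP30, and 13.4% and 14.4% with CPI203, with medians over all genes of 0.07 and -0.01. Among 26 regulators of immunoglobulin transcription 19 were tested. With SGC-CBP30 1 was called higher and 4 lower, with a list median of -0.35, and with CPI203 1 was called higher and 7 lower, with a median of -0.17. IRF4, a transcription factor of plasma cells, had 215 and 211 RPKM with DMSO against 86.2 and 79.5 RPKM with SGC-CBP30 (log2 change -1.36), and 228 RPKM in both DMSO libraries against 203 and 202 RPKM with CPI203 (-0.17). POU2AF1, the coactivator of the octamer factors at immunoglobulin promoters, had 81.9 and 86.2 RPKM with DMSO against 40.6 and 37.7 RPKM with SGC-CBP30 (-1.10), and 76.6 and 75.3 RPKM with DMSO against 31.1 and 32.0 RPKM with CPI203 (-1.26). It was the gene of this list called lower with both compounds, and the difference between its changes did not pass after adjustment (0.16, unadjusted interval 0.01 to 0.32, limma adjusted p = 0.0687).

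PRDM1, the repressor that sets the plasma cell program, changed by -0.64 with SGC-CBP30 and 0.36 with CPI203. XBP1, a factor of the secretory program, changed by -0.43 and -0.86, and both of its changes passed. IKZF1 was called lower with SGC-CBP30, by -0.78. It was also lower with CPI203, at 22.1 and 20.3 RPKM against 31.5 RPKM in both DMSO libraries, but was not called. ID3, an inhibitor of E proteins, was called higher with SGC-CBP30, by 1.42. Its mean was 6.52 RPKM with DMSO and 17.6 RPKM with SGC-CBP30, but 16.4 RPKM in the other DMSO pair. With CPI203 the largest falls of the list were those of IRF8 (-2.31) and IKZF3 (-1.80), and BACH2 was called higher by 0.72. IRF8 was low, with 1.92 and 1.78 RPKM with DMSO against 0.343 and 0.247 RPKM with CPI203. NFKB1, SPIB and TCF3 were also called lower with CPI203. SPIB was low too, averaging 2.40 RPKM with DMSO and 1.17 RPKM with CPI203. POU2F2 was not tested, with at most 1.43 RPKM.

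Of 12 genes that act in the processing of immunoglobulin mRNA, all tested, 1 was called lower with each compound and none higher, AFF1 with SGC-CBP30 (-0.68) and EAF2 with CPI203 (-1.23), with list medians of -0.10 and -0.11. EAF2 averaged 32.4 RPKM with DMSO and 13.8 RPKM with CPI203, but 15.8 RPKM in the other DMSO pair. ELL2, the elongation factor that favours the secreted form of the heavy chain, changed by -0.39 and -0.22, and HNRNPLL by -0.18 and 0.10, the last without passing (limma adjusted p = 0.11). Of 16 genes of recombination, class switching and hypermutation 12 were tested, with medians of 0.22 and -0.30. None was called with SGC-CBP30. With CPI203 EXO1 and POLH were called higher, by 0.76 and 0.80, and UNG and XRCC4 lower, by -0.79 and -0.71.

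Of 11 partners of the B cell receptor 4 were tested. None was called with SGC-CBP30, and BLNK, CD79B and CR2 were called lower with CPI203, by -2.67, -0.88 and -0.62, while CD79B changed by -0.45 with SGC-CBP30. CR2 was near the minimum for testing, averaging 1.79 RPKM with DMSO and 1.13 RPKM with CPI203. CD79A stayed at or under 0.204 RPKM. Of 32 genes for the folding, assembly and export of antibody 31 were tested, with medians of -0.04 and -0.11. None was called with SGC-CBP30, and with CPI203 SDF2L1 and SEL1L were called lower, by -0.86 and -0.65. The chaperones HSPA5 and HSP90B1, which bind unassembled heavy chains and other client proteins, changed by 0.08 and 0.02 with SGC-CBP30 and by 0.09 and -0.004 with CPI203, and of these only the change of HSPA5 with CPI203 passed (limma adjusted p = 0.0344). MZB1, a cofactor of antibody secretion, changed by -0.25 and -0.56, both of which passed.

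Of 17 immunoglobulin receptors and related genes 4 were tested, with list medians of -0.20 and -0.96. FCGRT, the neonatal receptor for IgG, and FCRLB were called lower with SGC-CBP30, by -0.63 and -0.60. FCGRT averaged 23.0 RPKM with DMSO and 14.8 RPKM with SGC-CBP30, but 12.35 RPKM in the other DMSO pair. FCRL5 and FCRLB were called lower with CPI203, by -2.51 and -1.81, and FCRL5 changed by 0.24 with SGC-CBP30 (limma adjusted p = 0.343). FCRL5 was near the minimum for testing, averaging 1.91 RPKM with DMSO and 0.253 RPKM with CPI203. Whether any of these genes had a part in the changes of the immunoglobulin transcripts was not tested.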

How the data were processed

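The paper states that total RNA was prepared, and it calls the method mRNA sequencing. For the 8 LP-1 libraries the authors deposited RPKM values per gene, made by their sequencing provider. The submitters' processing notes name hg19, TopHat 1.4.1 and Cufflinks. Whether counting used strand, and how reads that map to several genes were shared out, is not given in the sources used here. The table has 24 further columns, which were not used. No counts were available, so depth was estimated from steps of whole reads in values under 0.5 RPKM, of which 54.7% to 68.7% came out whole within 0.05 reads.

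Rows with a missing value (27) were dropped, and log2(RPKM + 0.1) was taken for the 14732 genes that averaged 1 RPKM or more. Fold changes on this scale understate those of low genes. limma 3.58.1 in R 4.3.3 was fitted to 4 group means (lmFit, contrasts, eBayes with an intensity trend, 4 residual and 5.5 prior degrees of freedom) with p adjusted after Benjamini-Hochberg over all of these genes, and the fit was tested on simulated data. A call required an adjusted p under 0.05 and 1.5-fold, and for the difference between compounds an adjusted p under 0.05. Alternatives were another pseudocount, filter, scaling, design and control set, and each library left out.

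Every member that reached 1 RPKM is named. The 12 with the highest mean, the joining chain and those called have a value per library. From each list the fixed genes IRF4, PRDM1, XBP1, POU2AF1, POU2F2, ELL2, HNRNPLL, CD79A, CD79B, MZB1, HSPA5, HSP90B1 and FCRL5 are named, with up to 2 called genes of the largest change each way, and called neighbours in the loci. One further gene of that rule is not reported here. The further called genes of the lists were named after their values were seen. The members and lists were chosen with earlier results of these data known. Sequences and identities came from GENCODE release 29 on GRCh38 (global alignment, Biopython 1.88), whose positions were not mixed with the deposited ones.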

Additional observations from a re-analysis of the deposited data

How the results depend on the processing

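Of the values of members that passed the test, 295 of 341 kept direction and significance over the alternatives with SGC-CBP30, 385 of 429 with CPI203, 111 of 127 for the difference between compounds and 319 of 333 between the DMSO pairs. The number called lower with SGC-CBP30 was 1 with no filter (IGLV3-22) and 2 with libraries scaled to the same median (IGHA1 and IGHA2), and with no minimum fold change 18 were lower and 1 higher. With no minimum fold change 24 were lower with CPI203 and 17 between the DMSO pairs. The 1 difference below 0 between compounds became 0 with no filter, 0 at 1.5-fold and 2 with median scaling. Leaving out 1 library gave 0 lower with SGC-CBP30, 5 to 6 with CPI203 and 7 to 8 between the DMSO pairs, and for the difference 7 to 9 above and 0 to 1 below 0. The paper states that treated replicates were set against paired DMSO controls, whereas the main fit here compared group means. No shift shared by replicate number was visible (correlations of replicate deviations -0.10 and 0.01). This cannot show that the libraries were unpaired. With the replicate number as a block the calls were 0 lower with SGC-CBP30, 5 lower with CPI203 and, for the difference, 7 above and 0 below 0.

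With all 4 DMSO libraries as controls, IGLL5, IGHV3-53 and IGHV3-66 turned to 0.13, 0.45 and 0.34 with SGC-CBP30, and IGHV3-30 and IGHV3-33 to 0.23 and 1.19 with CPI203, where this control set holds the step between the DMSO pairs. Quantile normalization gave IGLC6 0.037 with CPI203, and a change of 0 for IGHG1, IGLC1 and IGLL5 with SGC-CBP30 and for IGLV3-21 and IGLC1 with CPI203, since it gives genes of equal rank equal values. Summing by family gave -0.045 for IGLV3-1 with SGC-CBP30 and 0.054 for IGHV3-64 as a difference between compounds. Between the DMSO pairs it gave 1.21 for the lower IGHV3 genes and -0.28 for IGLC5, since the sum follows its most abundant genes. Genes under about 20 reads in some libraries, such as IGLC6 and IGLV3-32, are limited by depth there. IGLC6 had an estimated 51 to 89 reads in the SGC-CBP30 experiment and 3 to 5 in the CPI203 experiment.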
